A study of Mus musculus with 16 samples.

Results

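The matrix genes raised after WT1 deletion were *Mmp2*, *Dpt*, *Postn*, *Lum*, *Thbs2*, *Col6a5*, *Col8a1*, *Col8a2*, *Ccbe1* and *Sparcl1*, 10 genes whose products are secreted into the extracellular matrix. They were chosen by their higher group values after WT1 deletion in the deposited tables, so the rises given below describe that choice and were not tested again. All 10 had a row of their own in the table for GFP-high activated hepatic stellate cells (aHSCs), 9 had one for GFP-intermediate aHSCs, where *Col8a1* was missing, and 6 had one for quiescent hepatic stellate cells (qHSCs). The 3 tables together held 5954 distinct rows with a gene name.

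Hepatic stellate cells are the vitamin A-storing pericytes of the liver sinusoids. RNA was sequenced from 16 sorted samples that the study isolated as stellate cells. The aHSCs came from 6 male C57/Bl6 adults given carbon tetrachloride, a hepatocyte toxin that causes fibrosis around the central veins, over 8 weeks. Controls had the genotype PDGFRbCre;WT1_+_GFP;Ai14 and WT1-deleted animals the genotype PDGFRbCre;WT1_fl_GFP;Ai14. In both, GFP occupied 1 of the WT1 alleles, so the controls kept a single intact copy, and every sorted cell carried the red Cre reporter of the Ai14 line (RFP positive). GFP-high cells were sequenced from 3 controls and from 3 WT1-deleted animals. For the GFP-intermediate fraction, which the submitters labelled low, there were 2 and 2 samples, of which 1 control was pooled from 2 animals. The Cre was constitutive and followed PDGFRβ, so it could act in any cell that had expressed this receptor and not in stellate cells alone. The qHSCs were the lineage label-positive and label-negative cells of 3 uninjured WT1CreERT2;Ai14 animals, in which tamoxifen given at E10.5 had marked cells expressing WT1 and their progeny. The labels give those 3 animals as male, whereas the study's methods describe females for this experiment.

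Fibrous scar is a mixture of structural collagens, the small proteins that space and bind collagen fibrils, the matricellular proteins that sit in the matrix and signal to cells, and the proteases that cut all of these. After liver injury, stellate cells become myofibroblast-like and make much of this mixture. WT1 is a zinc finger transcription factor of the embryonic mesothelium, the layer from which part of the stellate cell lineage arises.

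The 250 bases upstream of the transcription start were available from RefSeq (GRCm38.p6) for 6 of the 10 genes, in 7 promoter entries because *Postn* had 2. Those of *Dpt* and *Postn* are shown as the members with the largest rise in GFP-high aHSCs among the abundant genes, and those of *Col8a1* and *Col8a2* because they encode the 2 chains of one collagen. They lie at chr1:164796413-164796662 (plus strand), chr3:54360857-54361106 (plus strand), chr16:57754738-57754987 (minus strand) and chr4:126286544-126286793 (plus strand) and are written 5′ to 3′ in the direction of the gene, so that the last base precedes the start. Capitals mark every match, on either strand, to one of the 5 motifs described after them.
Dpt: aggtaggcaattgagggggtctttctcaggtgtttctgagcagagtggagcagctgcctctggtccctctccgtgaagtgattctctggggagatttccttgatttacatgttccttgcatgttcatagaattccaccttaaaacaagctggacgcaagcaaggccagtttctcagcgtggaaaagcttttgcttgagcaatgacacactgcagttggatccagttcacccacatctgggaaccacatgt
Postn: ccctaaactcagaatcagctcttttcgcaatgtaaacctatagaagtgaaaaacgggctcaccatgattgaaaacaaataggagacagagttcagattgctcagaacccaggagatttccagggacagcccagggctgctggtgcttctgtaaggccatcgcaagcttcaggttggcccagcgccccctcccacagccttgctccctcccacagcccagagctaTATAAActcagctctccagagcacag
Col8a1: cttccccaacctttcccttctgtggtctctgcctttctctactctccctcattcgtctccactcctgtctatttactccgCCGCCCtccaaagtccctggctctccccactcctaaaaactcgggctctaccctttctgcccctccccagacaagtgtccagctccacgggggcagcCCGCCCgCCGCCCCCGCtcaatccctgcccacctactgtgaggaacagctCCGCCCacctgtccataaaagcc
Col8a2: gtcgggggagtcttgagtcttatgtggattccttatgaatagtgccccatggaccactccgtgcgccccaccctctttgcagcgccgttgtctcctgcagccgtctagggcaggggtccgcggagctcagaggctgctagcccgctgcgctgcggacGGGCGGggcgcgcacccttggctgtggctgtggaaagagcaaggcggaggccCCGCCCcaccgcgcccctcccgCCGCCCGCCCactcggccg

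The motifs searched were GCGNGGGNG, bound by the zinc fingers of WT1 and of the EGR family, the TATA box TATAAA, the CCAAT box CCAAT, the GC box GGGCGG and the AP-1 site TGANTCA. The WT1 and EGR motif occurred in 1 of the 7 promoter entries of these genes, that of *Col8a1*, where it lay on the opposite strand with its first base 65 bases before the start and overlapped a GC box. It was present in 3452 of all 32851 mouse promoter entries of the same length. The GC box occurred in 3 of the 7, those of *Col8a1*, *Col8a2* and *Col6a5*, against 32.7% of all. In *Col8a2* a pair of its 4 matches overlapped each other. A TATA box occurred in 2 of the 7, and in *Postn* it lay 26 bases before the start. The other one was on the opposite strand of *Thbs2*, and 12.4% of all promoters held this motif. The CCAAT box occurred in 1 of the 7, that of *Thbs2*, against 33.8%, and the AP-1 site in 0 of the 7, against 6.75%. The printed *Dpt* promoter contained none of the 5 motifs. These are matches of letters only, and for *Mmp2*, *Lum*, *Ccbe1* and *Sparcl1* no promoter was searched.

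Expression is given as a single FPKM per group, that is, sequenced fragments scaled to transcript length and to library size. The tables hold a selection of genes, and a gene is termed called here where it has a row. For both aHSC fractions the study's text counts fewer genes as changed by deletion than the tables have named rows. A row therefore does not prove that the study counted the gene as changed. Which of the matrix genes it counted was not checked. Values per animal were not used, which leaves the spread between animals and the sequencing depth unknown. A missing row gives no level. For that reason the identity of the sorted aHSCs could not be checked by the stellate cell genes *Pdgfrb*, *Des*, *Lrat* and *Acta2*, which have no row for either fraction. Called markers of stellate and other cells are given further below. The level of *Wt1* was not analysed here. All 25 rows of the matrix genes name a single gene. In GENCODE vM21, 3 of the genes, *Dpt*, *Ccbe1* and *Sparcl1*, overlap other annotated genes, whose reads may not be separable because no source used here says whether the libraries kept strand. The 10 genes lie on 10 different chromosomes.

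In GFP-high aHSCs all 10 matrix genes were higher in WT1-deleted than in control cells, by 2.07-fold for *Ccbe1* to 10.05-fold for *Dpt*. After deletion 77.2% of the 123 named rows were higher, and since the genes were picked from these rows the count of 10 says nothing beyond the choice. Their median log2 ratio was 2.25, against 2.28 for the 82 higher rows in which neither group was at 0. Summed over the 10 genes, the level was 88.3 FPKM in controls and 403 FPKM after deletion.

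The most abundant matrix gene of this fraction was *Lum*, which encodes lumican, a leucine-rich proteoglycan that regulates the width and spacing of collagen fibrils. It stood at 42.6 FPKM in control GFP-high aHSCs and at 136 FPKM after deletion, a 3.19-fold rise. *Dpt* encodes dermatopontin, a small protein that binds collagen and decorin and speeds fibril formation, and it stood at 8.66 FPKM in controls and 87.0 FPKM after deletion. *Dpt* thereby went from 9.81% to 21.6% of the summed FPKM of the 10 genes, while the share of *Lum* went from 48.2% to 33.7%. Among the 82 higher rows with no group at 0, *Dpt* had the 16th largest ratio and *Lum* the 61st.

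*Mmp2*, the gelatinase that cuts denatured collagen and basement membrane collagen, stood at 16.9 FPKM in control GFP-high aHSCs and 91.4 FPKM after deletion, a 5.41-fold rise. It was the second most abundant of the 10 genes in both groups. By its FPKM in deleted cells it stood 10th of the 95 higher rows, next to *Dpt* at 11th and behind *Lum* at 6th.

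The matricellular genes were spread over a wide range of levels. *Postn* encodes periostin, which binds integrins and assists collagen crosslinking, and its level was 7.10 FPKM in control GFP-high cells and 41.1 FPKM after deletion, a 5.79-fold rise. *Sparcl1*, which encodes the SPARC relative hevin, had 2.22 and 11.5 FPKM, a 5.17-fold rise. *Thbs2*, which encodes thrombospondin-2, an antiangiogenic protein that binds MMP2 and promotes its uptake by cells, had 2.62 and 7.60, a 2.89-fold rise. The ratio of *Thbs2* was thus the second smallest of the 10 genes, while those of *Postn* and *Sparcl1* were near that of *Mmp2*.

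The 3 collagen genes were less abundant than *Lum*, *Mmp2*, *Dpt* and *Postn* in both groups. *Col6a5*, a chain of the beaded-filament collagen VI, stood at 3.29 FPKM in control GFP-high aHSCs and 14.4 FPKM after deletion, a 4.38-fold rise. *Col8a1* and *Col8a2* encode the chains of collagen VIII, a short network-forming collagen. The FPKM of *Col8a1* was 0.781 and 4.44, a 5.68-fold rise, and that of *Col8a2* was 0.848 and 2.62, a 3.09-fold rise. Both were below 1 in control cells and above 1 after deletion. *Ccbe1*, whose product assists the cleavage of the lymphatic growth factor VEGF-C, had 3.29 and 6.81 FPKM. Its 2.07-fold rise was the 81st of the 82 ratios, close to the smallest of any higher row of that table, 2.03-fold. Values of genes that just missed a row cannot be given, since the tables stop at the called genes.

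**Figure D1:**
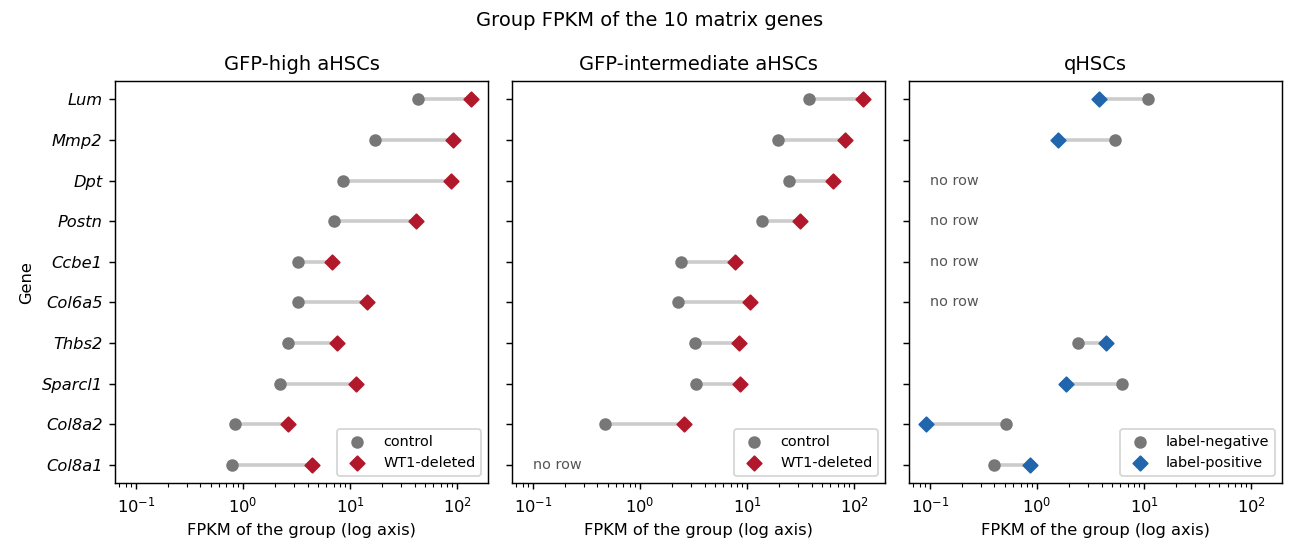
Group FPKM (x axis, log scale) of each of the 10 matrix genes (y axis) in GFP-high aHSCs, GFP-intermediate aHSCs and qHSCs. Each point is the authors' value for 1 group, so there are no error bars, and each grey line joins the groups of 1 comparison. In both aHSC panels the WT1-deleted point lies to the right of the control point for every gene with a row, whereas in qHSCs the label-positive point lies to the left for 4 of 6 genes.

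In GFP-intermediate aHSCs the 9 matrix genes with a row were also all higher after WT1 deletion, by 2.26-fold for *Postn* to 5.46-fold for *Col8a2*. Here 37.2% of the 419 named rows were higher after deletion and 263 rows were lower. The genes were chosen on this table too, so the count is again a description. Their median log2 ratio was 1.67, against 1.54 for the 146 higher rows with no group at 0. Summed over the 9 genes the level was 108 FPKM in controls and 336 FPKM after deletion. *Col8a1* has no row for this fraction, so its level there is not known.

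The order of the genes by level was much the same as in the GFP-high fraction. *Lum* again led, at 38.1 FPKM in control GFP-intermediate aHSCs and 122 FPKM after deletion, and its 3.19-fold rise equalled that in GFP-high cells. *Mmp2* had 19.5 and 82.8 FPKM, a 4.25-fold rise. *Dpt* had 24.7 and 62.8, a 2.55-fold rise. In control cells of this fraction *Dpt* exceeded *Mmp2*, and in WT1-deleted cells *Mmp2* exceeded *Dpt*.

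*Postn* stood at 13.6 FPKM in control GFP-intermediate aHSCs and 30.9 FPKM after deletion. *Sparcl1* had 3.36 and 8.51, a 2.53-fold rise, and *Thbs2* had 3.24 and 8.45, a 2.61-fold rise. All 3 matricellular genes therefore had ratios below the median of the 9. The 2.26-fold rise of *Postn* ranked 136th of 146, near the smallest of any higher row in that table, 2.15-fold. The collagens had the largest ratios without a pseudocount. With a pseudocount of 1 the log2 ratio of *Col8a2* went from 2.45 to 1.28, and that of *Mmp2*, at 2.03, was then the largest. *Col8a2* had 0.469 and 2.56 FPKM, and *Col6a5* had 2.28 and 10.7, a 4.70-fold rise. *Ccbe1* had 2.43 and 7.73, a 3.19-fold rise.

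The size of the rise was then set side by side between the fractions. The tables were normalised separately and the fractions came largely from the same animals, and no difference between fractions could be tested. The log2 ratio was larger in GFP-high than in GFP-intermediate cells by 1.98 for *Dpt*, 1.36 for *Postn* and 1.03 for *Sparcl1*. As GFP-high minus GFP-intermediate, the difference was -0.82 for *Col8a2* and -0.62 for *Ccbe1*, but with a pseudocount of 1 added to each FPKM it was -0.31 and -0.48. For *Lum*, *Mmp2*, *Thbs2* and *Col6a5* the fractions were within 0.5 of each other on the log2 scale. With that pseudocount *Col8a2* and *Ccbe1* were also within 0.5, whereas *Dpt*, *Postn* and *Sparcl1* stayed beyond it, at 1.87, 1.26 and 0.83.

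*Dpt*, *Postn* and *Sparcl1* also had the lowest starting levels in GFP-high relative to GFP-intermediate cells. The control FPKM in GFP-intermediate cells was 2.85 times that in GFP-high cells for *Dpt*, 1.92 times for *Postn* and 1.52 times for *Sparcl1*. After deletion the levels lay closer together. The FPKM in WT1-deleted GFP-high cells was 0.881 to 1.38 times that in WT1-deleted GFP-intermediate cells over the 9 genes, whereas for the control cells the same ratio ran from 0.351 for *Dpt* to 1.81 for *Col8a2*. In controls 5 of the 9 genes were lower in GFP-high cells, and after deletion 7 of the 9 were higher there. A ratio and its own control level are not independent measures, so these are not separate observations.

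**Figure D2:**
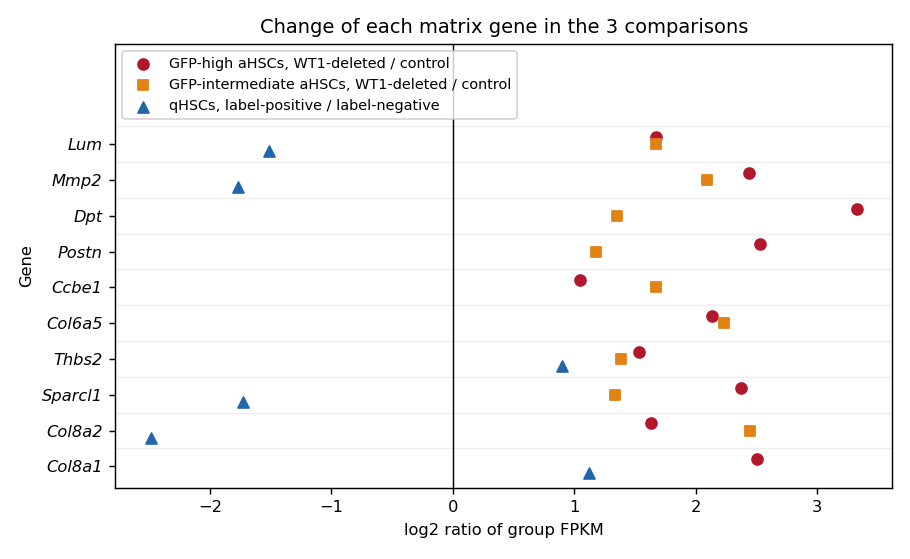
The log2 ratio of group FPKM (x axis) for each matrix gene (y axis), as WT1-deleted over control in GFP-high aHSCs (red circles) and GFP-intermediate aHSCs (orange squares) and as label-positive over label-negative in qHSCs (blue triangles). *Dpt*, *Postn* and *Sparcl1* show the widest gaps with the circle to the right, *Col8a2* and *Ccbe1* have the square to the right, and the markers of *Lum* nearly coincide.

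**Figure D3:**
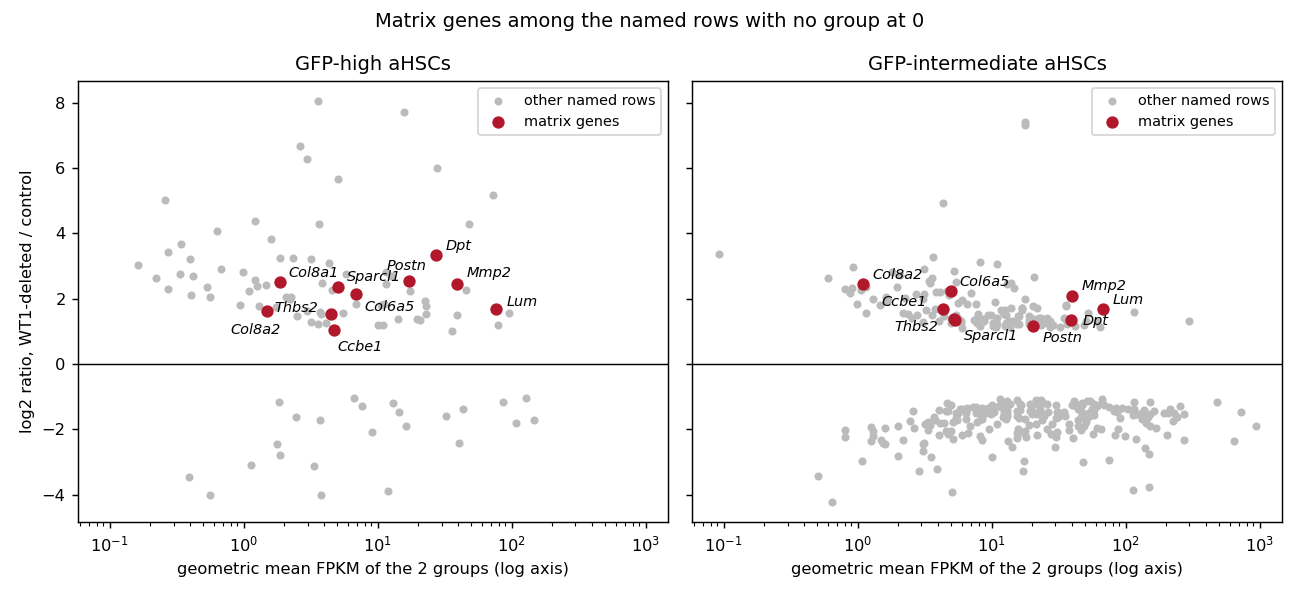
The log2 ratio, WT1-deleted over control (y axis), against the geometric mean FPKM of both groups (x axis, log scale) for every named row with no group at 0. Matrix genes are red and the other rows grey. The red points lie within the range of the grey points above 0 and reach from the low-abundance *Col8a2* to the abundant *Lum* in both fractions.

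In uninjured qHSCs, which the choice of genes did not use, the comparison was between lineage label-positive and label-negative cells of the same animals. Of the 6 matrix genes with a row 4 were higher in label-negative cells, *Lum*, *Mmp2*, *Sparcl1* and *Col8a2*, and 2 were higher in label-positive cells, *Thbs2* and *Col8a1*. Among all 5716 rows 49.6% were higher in the label-negative group and 50.4% in the label-positive one. The median log2 ratio of the 6 genes, label-positive over label-negative, was -1.62, against 0.64 over all rows with no group at 0. With a pseudocount of 1 the median of the 6 was -0.89. With 6 genes of one choice, this describes the genes and not a tendency of matrix genes.

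*Lum* stood at 10.9 FPKM in label-negative qHSCs and at 3.82 FPKM in label-positive ones, 2.86-fold higher in the former. *Mmp2* had 5.39 and 1.58, a 3.41-fold difference, and *Sparcl1* had 6.22 and 1.88, a 3.31-fold difference. All 3 thus differed by about 3-fold, in the same direction. *Thbs2* went the other way, with 2.39 FPKM in label-negative cells and 4.44 FPKM in label-positive ones, a 1.86-fold difference. The chains of collagen VIII went opposite ways. *Col8a1* had 0.398 and 0.865 FPKM, and *Col8a2* had 0.518 and 0.0922, so that all 4 values were below 1. *Dpt*, *Postn*, *Col6a5* and *Ccbe1* have no row in qHSCs.

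Beside these values, markers of other cells moved between the qHSC groups. All 12 lymphocyte markers were higher in label-negative cells, with a summed FPKM of 1456 against 47.2. In label-positive cells all 11 called sinusoidal endothelial markers were higher, with a summed FPKM of 10660 against 3994, and so were all 10 hepatocyte markers, with 1251 against 194. Of the portal fibroblast markers 4 were higher in label-negative cells, *Scara5*, *Pi16*, *Clec3b* and *Gsn*, and 4 were higher in label-positive cells, *Cd55*, *Dpp4*, *Gas6* and *Ly6a*. Summed over all 8, label-negative cells had 889.9 FPKM and label-positive cells 1452 FPKM. *Pi16* stood at 32.6 FPKM in label-negative cells and at 8.71 FPKM in label-positive ones, and *Dpp4* at 187 and 423 FPKM. Macrophage genes went both ways, 9 higher and 4 lower in label-positive cells, and of the mesothelial genes 7 were higher and 1 was lower there. Of the stellate cell and myofibroblast genes 3 were higher and 6 lower in label-positive cells. Among these *Pdgfrb* stood at 0.905 FPKM in label-negative cells and 0.370 FPKM in label-positive ones, and *Des* and *Lrat* have no row. The called stellate cell and myofibroblast genes summed to 744.9 FPKM in label-negative and 360.4 FPKM in label-positive cells. In both groups this was below the sum of the sinusoidal endothelial markers. *Vim* alone made up most of the stellate cell sum, at 586 FPKM in label-negative and 248 FPKM in label-positive cells, and *Thy1* had 106 and 9.02. The 3 genes higher in label-positive cells were *Hgf* at 17.0 and 44.1, *Tpm1* at 27.0 and 54.0 and *Rgs5* at 0.750 and 3.29. The sum therefore mainly follows *Vim* and does not give the direction of the list. The part of these other cells in the differences of the matrix genes was not tested. In sorted bulk samples more cells of a type and more RNA per cell cannot be told apart.

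Other matrix genes were described by fixed lists, which do not hold every matrix gene of the tables. Outside the lists *Cilp*, *Svep1* and *Hmcn2* in GFP-high cells and *Spon1*, *Spon2* and *Vit* in GFP-intermediate cells, for example, were also higher after deletion. No other collagen had a row in GFP-high aHSCs, and in GFP-intermediate aHSCs the only other one was *Col24a1*, at 2.13 FPKM in controls and 5.99 FPKM after deletion. The fibrillar collagen genes *Col1a1*, *Col1a2* and *Col3a1* had no row in either fraction. Of 16 further small leucine-rich proteoglycans, the family of *Lum*, 0 had a row in either fraction. In the authors' tables a missing row gives no level and does not say that the gene was unchanged.

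Of 32 further matricellular genes 1 had a row for GFP-high cells and 4 for GFP-intermediate cells, all higher after deletion. Among all named rows 77.2% were higher in GFP-high and 37.2% in GFP-intermediate cells. In GFP-high cells *Smoc1* had 0.123 and 0.602 FPKM. In GFP-intermediate cells *Tnc*, which encodes tenascin-C, had 6.61 and 32.9, *Fbln1* had 43.3 and 95.3, *Ctgf* had 11.5 and 31.7, and *Wisp1* had 1.82 and 5.77. Tenascin-C binds periostin, and the 4.97-fold rise of *Tnc* compares with 2.26-fold for *Postn* in the same cells. Of 15 basement membrane genes *Lama2* alone was called, in GFP-high cells, with 0.0957 and 1.21. Of 30 genes of elastic fibres, fibronectin and collagen crosslinking, 1 was called in each fraction and both were higher. They were *Mfap5*, at 8.10 and 38.1 FPKM in GFP-high cells, and *Lox*, the crosslinking enzyme lysyl oxidase, with 28.1 and 62.7 in GFP-intermediate cells.

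The protease list was limited to the Mmp, Adam, Adamts, Adamtsl and Timp families and *Reck*. In GFP-high cells *Adamtsl2*, which lacks protease activity, was the only gene of that list besides *Mmp2* with a row, at 0.372 and 2.61 FPKM. Proteases of other families were called too, among them *Htra3*, at 12.3 and 31.6 FPKM. In GFP-intermediate cells 8 others of the list were called, of which *Mmp7*, *Mmp23* and *Adamts5* were higher and *Mmp9*, *Mmp12*, *Mmp13*, *Mmp27* and *Adam8* were lower. Of all named rows of that fraction 37.2% were higher. *Mmp12*, the macrophage elastase, stood at 551 FPKM in controls and 40.3 FPKM after deletion, and *Mmp9*, the other gelatinase, had 20.7 and 7.30. The 2 gelatinase genes therefore went opposite ways in GFP-intermediate cells. The inhibitor genes *Timp1*, *Timp2*, *Timp3* and *Timp4* had no row in either fraction.

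Markers of other cells also moved with WT1 deletion. Among all named rows 77.2% were higher after deletion in GFP-high and 37.2% in GFP-intermediate cells. In GFP-intermediate aHSCs 11 of 15 macrophage genes were called, in 10 rows, and all rows were lower after deletion, with a sum of 5211 FPKM in controls and 1290 FPKM after deletion. The count and sums leave out *Adgre1*, which was searched by that symbol only. Under its older symbol, *Emr1*, it had a row with 131 FPKM in controls and 32.8 FPKM after deletion. None of the 15 symbols of the list had a row in GFP-high aHSCs. Other genes known from macrophages did, and 4 of them, picked after their values were seen, were higher in WT1-deleted GFP-high cells and lower in WT1-deleted GFP-intermediate cells. They were *Gpnmb*, at 20.8 and 100.9 FPKM in control and deleted GFP-high cells and 177.7 and 39.7 FPKM in GFP-intermediate ones, *Pf4*, at 23.1 and 65.6 against 209 and 27.5 FPKM, *Ms4a7* and *Atp6v0d2*. Neutrophil genes, also picked after their values were seen, were lower after deletion in both fractions. *S100a8* stood at 268 and 81.1 FPKM in GFP-high and at 412 and 123 FPKM in GFP-intermediate cells, and *S100a9*, *Ngp*, *Ltf* and *Retnlg* were lower in both as well. In GFP-high aHSCs 3 of 12 portal fibroblast genes were called and all were higher, *Pi16* at 4.98 and 32.2 FPKM, *Scara5* with 1.62 and 9.04 and *Gsn* with 55.8 and 164. Given the share of higher rows in that fraction, the direction of these 3 genes does not set them apart. No portal fibroblast gene had a row in GFP-intermediate aHSCs. Of 19 stellate cell and myofibroblast genes, 0 had a row for GFP-high cells and 4 for GFP-intermediate ones. There *Rgs5*, *Cygb* and *Pdgfra* were higher and *Hgf* was lower. These 4 genes summed to 69.2 FPKM in control GFP-intermediate cells and 151 FPKM after deletion, below the macrophage sum in both groups. The sums cover called genes only. *Cygb*, the stellate cell globin, stood at 39.5 FPKM in control GFP-intermediate cells and 96.5 FPKM after deletion. Of 12 lymphocyte genes only *Trac* had a row for GFP-high cells. That row joins it with other T cell receptor segments and had 10.9 FPKM in controls and 213 FPKM after deletion. No mesothelial gene of 11 had a row in either fraction. In GFP-high cells 1 hepatocyte gene of 10 was called, *Cps1* at 0.233 and 1.20 FPKM. In GFP-intermediate cells 2 of 12 sinusoidal endothelial genes were lower after deletion, with a sum of 138 FPKM in controls and 38.9 FPKM after it, and so was 1 of 12 lymphocyte genes, *Gzma*, at 9.93 and 3.05 FPKM. What part a changed cell mixture had in the rise of the matrix genes was not tested.

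**Figure D4:**
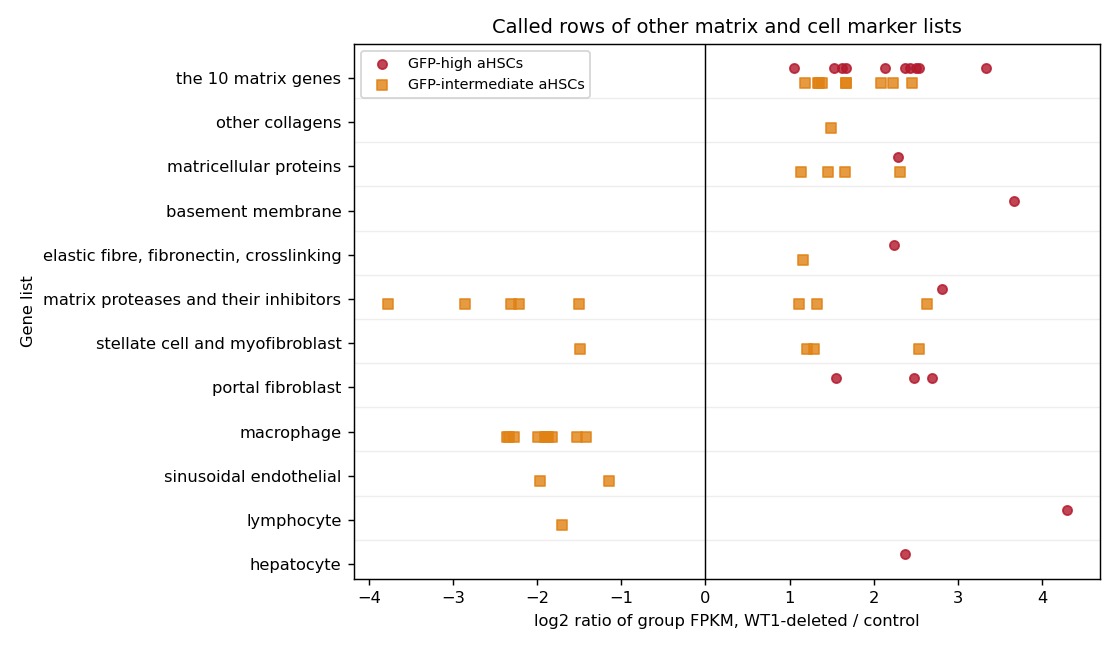
The log2 ratio of group FPKM, WT1-deleted over control (x axis), for every called row with no group at 0 from the lists of other matrix genes and cell markers (y axis), in GFP-high (red circles) and GFP-intermediate aHSCs (orange squares), with the 10 matrix genes on the top line. All rows of the collagen, matricellular, basement membrane and elastic fibre lists lie above 0. Rows of the macrophage list lie below 0 and are orange only, those of the portal fibroblast list lie above 0 and are red only, and protease rows lie on both sides.

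Rows called in both deletion tables numbered 45, and 24 were higher in both fractions, 9 of them matrix genes described here. The 9 were chosen by their rises in these comparisons, so their number among the 24 follows from the choice. Among 32 other single-gene rows called in both tables with no group at 0, the 5 nearest to the median log2 ratios of the matrix genes were *Galnt11*, *Itih5*, *Osr1*, *Sfrp1* and *Scn7a*. Likeness was the Euclidean distance over the log2 ratios of 2 comparisons or, for *Itih5* and *Scn7a*, which also have a row in qHSCs, of 3. The distance was not scaled to the number of comparisons, and another comparison can only add to it. The order of the 5 rows therefore depends partly on which of them have a row in qHSCs. The distance was 0.461 for *Galnt11*, 0.958 for *Itih5* and between 1.07 and 1.37 for the others. *Galnt11*, which encodes an enzyme that starts O-linked glycans, stood at 12.3 FPKM in control GFP-high cells and 42.6 FPKM after deletion, and 12.2 and 39.8 in GFP-intermediate cells. *Itih5*, whose product belongs to a family that binds hyaluronan, had 2.15 and 6.47 in GFP-high and 0.874 and 4.45 in GFP-intermediate cells. In qHSCs its log2 ratio was -1.75, so that, like *Lum*, *Mmp2* and *Sparcl1*, it was higher in label-negative cells.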

How the data were processed

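Cells were sorted by flow cytometry and their RNA sequenced on an Illumina HiSeq. Per the study's methods, alignment used bowtie 2 and genes were called by Cuffdiff2 where the adjusted p fell under 0.05. DESeq2 served the authors' principal component analysis. The submitters' processing notes also name TopHat2 2.0.3, Cufflinks 2.0.1, DESeq2 and the builds mm9 and mm10. The authors deposited FPKM values, 1 per group and row, with replicates combined. The files with the authors' own fold changes and p-values were not used. Because only group values were used, no test was made, and the tests planned for values per sample were not run.

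Changes were log2 ratios of group FPKM without a pseudocount. Unnamed loci were left out of all counts, 108 from the GFP-high table and 149 from the other deletion table. A row belonged to a gene if any of its comma-separated names matched. The genes, the lists and the rule for similar rows were chosen with earlier results of these data known. Named genes were mainly the 10 matrix genes, called genes of the lists and the 5 most similar rows. Some genes were named because they had no row, and some called genes outside the lists as examples. The macrophage and neutrophil genes outside the lists were picked after their values were seen. Promoters came from RefSeq (GRCm38.p6) and gene overlaps from GENCODE vM21. The ratio calculation was tested on simulated data. Alternatives were pseudocounts of 1 and 0.1, a minimum FPKM of 1 for the larger value, a minimum absolute log2 ratio of 1 and rows naming 1 gene. Python 3.11.15, pandas 2.3.3, numpy 2.4.6 and matplotlib 3.10.9 were used.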

Additional observations from a re-analysis of the deposited data

How the results depend on the processing

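The counts of 10 and 9 matrix genes higher after WT1 deletion could not change under the 3 filters, so these say nothing about robustness. With a minimum FPKM of 1, the lowest deleted values were 2.62 in GFP-high and 2.56 in GFP-intermediate cells. With a log2 ratio of at least 1, the smallest rises of any higher row with no group at 0 were 2.03-fold and 2.15-fold. Every matrix gene row names 1 gene. In qHSCs the count higher in label-positive cells went from 2 to 1 with the minimum FPKM, which removed *Col8a1*, and to 1 with the minimum log2 ratio, which removed *Thbs2*. With a pseudocount of 1 the median log2 ratio was 1.75 in GFP-high, 1.31 in GFP-intermediate aHSCs and -0.89 in qHSCs. With a pseudocount of 0.1 it was 2.21, 1.63 and -1.58. Both pseudocounts shrink ratios of low values. The direction of the 25 single ratios was not open to change, because the same amount was added to both groups. No paired analysis was possible because only 1 value per group was used, although the fractions share animals. For the same reason no sample could be left out, and count-based alternatives were not run. The tables do not list every gene, so a gene without a row cannot be called unchanged.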
